A study of Homo sapiens with 20 samples.

Results

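The stretch of chromosome 11 that holds ETS1 and FLI1 was examined for H3K27ac, the acetylation of lysine 27 on histone H3 that marks working enhancers and promoters. The window ran from 127.90 to 128.75 Mb of hg19, a length of 850 kb, with ETS1 placed at 128.33 to 128.46 Mb and FLI1 at 128.56 to 128.68 Mb. Its members are the H3K27ac peaks that overlap it, 276 of the 458811 peaks in the lists of 4 libraries. The window was chosen on its H3K27ac values, because a block of peaks had been seen there with SMARCB1. The values below are therefore a description, and no test was made of them.

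The libraries came from G401, an established rhabdoid tumour cell line labelled SMARCB1(-/-) in every group. Doxycycline induced either GFP, the control, or SMARCB1, the core SWI/SNF subunit that these cells lack, and chromatin was prepared with an enzymatic kit. Each induction had 2 H3K27ac libraries, replicates 1 and 2, and these 4 of the 20 samples were analysed. The samples of H3K4me3, H3K4me1, SMARCA4 and input DNA were not analysed here. The time and dose of doxycycline, and the promoter behind the induced genes, are not given in the sources used here. All libraries are of 1 cell line, and nothing in the labels says that replicates were separate cultures, so their spread may be technical. The comparison asks where acetylation of this locus differs once the missing subunit is supplied.

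ETS1 and FLI1 encode transcription factors of the ETS family, which bind DNA through a shared ETS domain at sites with a GGAA core. ETS1 is best known from lymphocytes, endothelium and invading mesenchymal cells. FLI1 acts in endothelial and blood cell development and is the usual partner of EWSR1 in the fusion of Ewing sarcoma. ETS1 is transcribed from alternative start sites, and the borders used here are those of the whole gene. The genes lie head to head, so that their first exons face each other and the 3′ end of ETS1 points away from FLI1. In the RefSeq gene order of GRCh38.p14, no protein-coding gene lies between them. KIRREL3 is the protein-coding neighbour on the ETS1 side and KCNJ1 the neighbour on the FLI1 side, with long non-coding RNA genes, LINC02725 and LINC02098 among them, between KIRREL3 and ETS1. SWI/SNF complexes move and evict nucleosomes, and complexes that contain SMARCB1 are known to act at enhancers.

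With SMARCB1, the 3′ side of ETS1 and the ETS1 gene itself held many acetylation peaks, while no peak was called in FLI1 in any library. The SMARCB1 lists were larger over the whole genome. They held 145533 and 135472 peaks in replicates 1 and 2, covering 122 and 101 Mb. The GFP lists held 98251 and 79555 peaks, covering 88.8 and 82.3 Mb. The window held 4 peaks in GFP replicate 1 and 2 in GFP replicate 2, against 125 and 145 in SMARCB1 replicates 1 and 2. Peaks covered 1.69 and 0.770 kb of it with GFP. They covered 144 and 125 kb with SMARCB1, which is 16.9% and 14.6% of the window. The group means were 1.23 ± 0.649 kb and 134 ± 13.8 kb (SD, n = 2). The difference of 133 kb was larger than the SD of either group, and the groups did not overlap. Since the window was chosen on this contrast, neither is evidence for it. Over the genome, 27% of windows of this length with a peak had at least 2 times the covered length with SMARCB1 and no overlap.

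**Figure D1:**
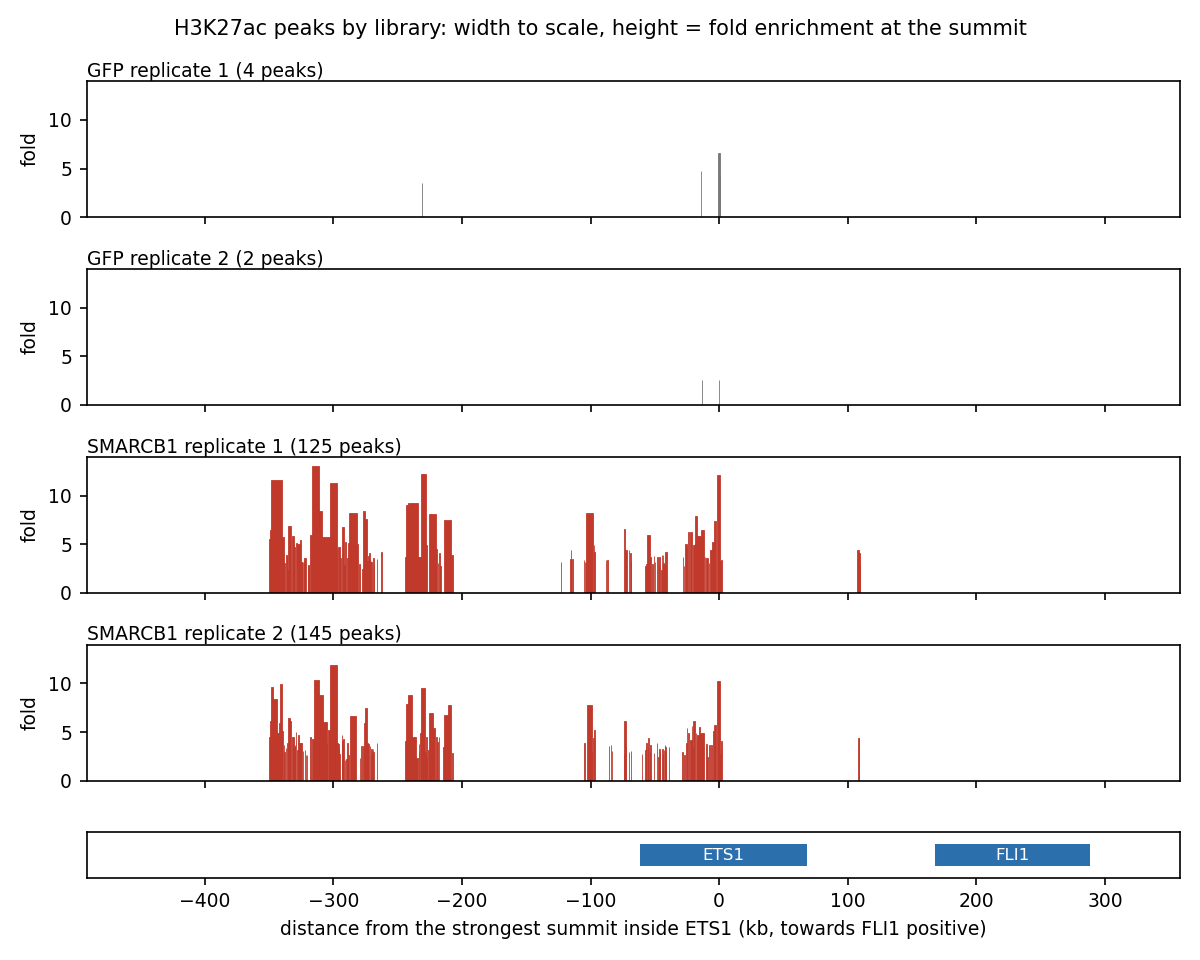
H3K27ac peaks of the 4 libraries over the window, with distance in kb from the strongest summit inside ETS1 on the horizontal axis, the width of each bar to scale and its height the fold enrichment at the summit. Of the 125 and 145 peaks of the SMARCB1 libraries, all but 3 and 2 lie on the left or inside ETS1, and those few lie between the genes, whereas the GFP libraries show 4 and 2 peaks.

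A peak list gives no value where no peak was called, so an empty stretch is one below the calling threshold and not one shown to lack acetylation. Depth was not equal. The background expected at a summit, recovered from each peak's fold enrichment and p-value, was 1.82 fragments genome-wide in GFP replicate 1, the lowest, and 3.74 in GFP replicate 2, against 4.79 (before a scale of 0.855) and 3.89 with SMARCB1. When the fragments and background of every peak were scaled to the lowest background, 107 and 131 of the SMARCB1 peaks were kept, covering 139 and 119 kb. GFP replicate 1, the library with that background, had its 4 peaks, and GFP replicate 2 was left with 0 of its 2.

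Most of the acetylated sequence lay outside the genes, in the 430 kb before ETS1. There, peaks covered 0.200 kb in GFP replicate 1 and nothing in GFP replicate 2. The SMARCB1 libraries had 108 and 94.2 kb in peaks, a mean of 101 ± 9.91 kb (SD, n = 2). GFP thus had a single peak in this stretch, at chr11:128160471-128160670 with a fold enrichment of 3.55 and 12 fragments at its summit. The region around that peak, chr11:128160179-128164926, reached a fold enrichment of 12.2 and 9.57 with SMARCB1.

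When neighbouring peaks within 12.5 kb were joined, both SMARCB1 libraries began with the same pair of clusters. The first, farthest from ETS1, ran from 128041697 to 128129606 in replicate 1, with 55 peaks over 87.9 kb and 74.7% of its length in peaks. In replicate 2 it ran from 128041731 to 128126065, with 63 peaks over 84.3 kb and 67.5% in peaks. After 17.8 and 21.6 kb without a peak came the second, from 128147416 to 128184666 in replicate 1 and from 128147674 to 128184652 in replicate 2, with 81.2% and 76.3% in peaks. These clusters were the most densely covered of the long ones in both libraries.

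A stretch without peaks followed, 84.2 kb long in replicate 1 and 102 kb in replicate 2. Beyond it acetylation resumed more sparsely. Replicate 1 had a cluster from 128268886 to 128305128 with 25.6% of its length in peaks, and a further one from 128317900 to 128393882 with 48.9%, which crosses the 3′ border of ETS1. In replicate 2 this side formed a single cluster from 128287093 to 128393896, with 58 peaks and 36.0% in peaks. The libraries thus placed the outer edge of this cluster group differently, by the peaks of replicate 1 alone, but shared its inner edge inside ETS1.

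The strongest gained regions all lay before ETS1. Gained regions are stretches of merged overlapping peaks to which both SMARCB1 libraries contribute a peak and the GFP libraries none. Ranked by the lower of the SMARCB1 fold enrichments, the first was chr11:128089181-128094406, with a fold enrichment of 11.3 in replicate 1 and 11.9 in replicate 2, from 66 and 57 fragments at the summits. The second was chr11:128075035-128080483, with 13.0 and 10.4, and the next chr11:128043211-128051795, with 11.6 and 9.92. The fourth, chr11:128149923-128160051, had 9.24 and 8.80 and was the widest gained region at 10129 bp. The last of these 5 was chr11:128080658-128088945, with 8.43 and 8.80. It lies between the first and the second in the same cluster, so these are not independent sites. The next region in rank, chr11:128147416-128149828, had 9.0 and 7.92.

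ETS1 itself held few peaks with GFP, 3 in replicate 1 and 2 in replicate 2, and many with SMARCB1. Peaks covered 1.49 and 0.770 kb of the gene with GFP, a mean of 1.13 ± 0.508 kb, and 34.1 and 29.4 kb with SMARCB1, a mean of 31.7 ± 3.35 kb (SD, n = 2). The difference was 30.6 kb. The groups did not overlap, but the gene lies in the window chosen on this contrast, so this too is a description. All of the sequence that either GFP library had in peaks was also in a peak of each SMARCB1 library, 100% in every pairing.

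**Figure D2:**
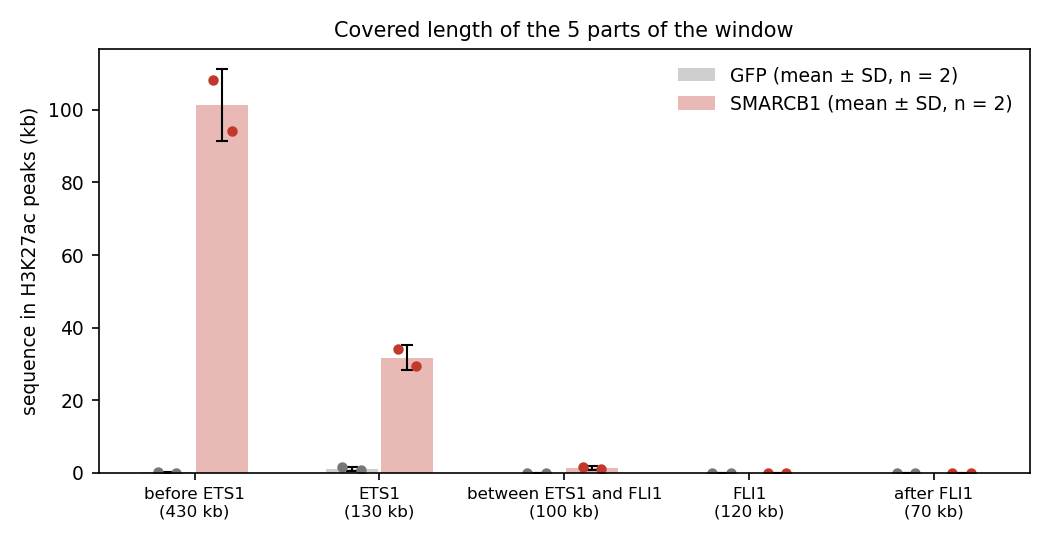
Sequence in H3K27ac peaks, in kb, for the 5 parts of the window, with bars for the group mean, error bars for the SD and a point for each library (n = 2 per group). The SMARCB1 libraries reach 94.2 to 108 kb before ETS1 and 29.4 to 34.1 kb in ETS1, and all 4 libraries are at 0 in and after FLI1.

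A pair of regions, both within ETS1, had a peak in all 4 libraries as deposited. This call rests on the 2 peaks of GFP replicate 2, which were not kept with a -log10 q of at least 5 or with depth scaled, so that no region was then common to all 4. The stronger was chr11:128389798-128392303. Its fold enrichment with GFP was 6.55 and 2.59, on 18 and 17 fragments at the summit in replicates 1 and 2. With SMARCB1 it was 12.1 and 10.3, on 92 and 62 fragments. Both SMARCB1 libraries lay above both GFP libraries, and GFP replicate 2 was the lowest. The means were 4.57 ± 2.80 and 11.2 ± 1.27 (SD, n = 2). The difference of 6.63 exceeded both SDs, in a window chosen for its peaks with SMARCB1. The 4 summits lay within 686 bp of each other, while the width of the peak was 943 and 570 bp in the GFP libraries against 2435 and 2483 bp once SMARCB1 was induced. This was the strongest peak of the window by p-value in both GFP libraries and in SMARCB1 replicate 1, where it ranked 3180 of 145533. Fold enrichments of separately called lists depend on each list's background, here 1.90 and 5.96 fragments with GFP and 6.55 and 5.12 with SMARCB1, the value of SMARCB1 replicate 1 being before its scale of 0.855.

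The other common region was chr11:128374287-128380262. GFP replicates 1 and 2 each had a narrow peak in it, 282 and 200 bp wide, with fold enrichments of 4.72 and 2.62. SMARCB1 replicates 1 and 2 had 2 and 4 peaks, covering 5866 and 5254 bp, with highest fold enrichments of 6.44 and 5.57. The summits of these highest peaks lay up to 2101 bp apart. The peak of SMARCB1 replicate 2 with 5.57, at chr11:128376192-128377058, overlapped no GFP peak, and the one that did, at chr11:128377256-128379940, had 4.94. In SMARCB1 replicate 1 each of its peaks, with 5.84 and 6.44, overlapped a GFP peak. GFP replicate 1 also had a peak with a fold enrichment of 4.22 in the neighbouring region chr11:128392431-128393245, which was 3.26 and 3.29 with SMARCB1. There the GFP fold enrichment was the higher, with no peak in GFP replicate 2. The peak of SMARCB1 replicate 2 with 3.29 overlapped no GFP peak, and the one that did had 2.73. Fragments at the summit were fewer with GFP, 12 against 37 and 25 in the overlapping peaks of SMARCB1 replicates 1 and 2. The background was 2.08 fragments in GFP replicate 1, 8.54 in SMARCB1 replicate 2 and higher still in SMARCB1 replicate 1. The higher fold is therefore not a sign of more acetylation with GFP.

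Taken as everything from the first peak of the window to the last one inside ETS1, the block stopped inside the whole-gene borders used here. Where it stopped relative to the alternative start sites of ETS1 was not examined, since these were not placed. The last peaks of the block, from 128389798 in SMARCB1 replicate 1 and 128389821 in replicate 2, are absent from the authors' regions away from transcription start sites, described below. The distance to the ETS1 border given here is therefore not a distance to a start site. The last peak of the ETS1 cluster ended at 128393882 in SMARCB1 replicate 1 and at 128393896 in replicate 2, a difference of 14 bp. At the other end of the block, the first peaks started 34 bp apart. Between these ends the block spanned 352 kb in both libraries, with the internal stretch of 84.2 and 102 kb without a peak. From its end, 66.1 kb of ETS1 remained without a peak up to the border that faces FLI1, and the distance to FLI1 was 166 kb. The GFP peaks ended near the same place, at 128392753 and 128391919.

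Beyond this edge lay 1 small island of peaks between the genes, and then nothing in the window. The island comprised 3 peaks from 128499341 to 128501462 in SMARCB1 replicate 1 and 2 peaks from 128499755 to 128500849 in replicate 2, separated from the ETS1 peaks by 105 and 106 kb. Its highest fold enrichments were 4.39 and 4.41, on 25 and 21 fragments. It was followed by 58.5 and 59.2 kb without a peak up to FLI1. FLI1 and the 70 kb after it had 0 bp in peaks in every library. The next peak beyond the window started at 129724345 or later, at least 1223 kb from the last peak inside. On the ETS1 side, the nearest peak outside ended 1744 kb before the block in SMARCB1 replicate 1 and 1759 kb before it in replicate 2.

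In bins of 10 kb, the SMARCB1 libraries exceeded both GFP libraries in 28 of 185 bins, and 25 of these had no GFP peak. No bin was higher in both GFP libraries, and 155 bins were empty in all 4. The higher bins formed 3 runs when at most 2 other bins were allowed inside a run. The run with most of them had 14 and reached from 128040001 to 128190000, so that by bins the main block ends before ETS1. The next had 12, from 128280001 to 128400000, and covered the 3′ part of ETS1. The last had 2, from 128490001 to 128510000. The densest bin was the stretch from 128150001 to 128160000, with 9756 and 9322 bp in peaks with SMARCB1 and none with GFP.

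Merging the peaks of the 4 libraries gave 121 regions in the window. Of these, 77 were gained, 2 had a peak in every library, and 2 more were shared by GFP replicate 1 and both SMARCB1 libraries. The remaining 40 had a peak in a single SMARCB1 library. Gained regions were 63.6% of the regions of the window, against 17.5% of all 167933 regions of the genome. Since the window was chosen on this contrast, the count describes it and supports nothing further. No region of the window was lost, the opposite case of peaks in the GFP libraries alone, against 3.94% over the genome. Only 4 of the 121 regions had a peak in any GFP library, against 78407 of 167933 over the genome. Few regions of the window could thus be lost. By place, 51 of the gained regions lay before ETS1, 24 in ETS1, 2 between the genes and 0 in FLI1. With peaks within 1 kb joined, the gained regions numbered 13, since the block is made of closely spaced peaks.

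The SMARCB1 libraries drew much the same outline. They shared 114 kb of the 155 kb that either had in peaks, a Jaccard index of 0.732. The shared sequence was 78.8% of what replicate 1 had in peaks and 91.2% of what replicate 2 had. The GFP libraries shared 0.570 kb, with a Jaccard index of 0.302.

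Within their own lists, the SMARCB1 peaks of the window were wider by median, and their median fold enrichment was slightly higher. In SMARCB1 replicate 1 their median width was 546 bp, against 402 bp over its list, and in replicate 2 it was 467 bp against 379 bp. Peaks over 3 kb wide were 8.80% of the window's peaks and 4.61% of the list in replicate 1, and 4.14% and 3.57% in replicate 2. The widest measured 8585 bp, at chr11:128043211-128051795 in replicate 1, and 5370 bp, at chr11:128104401-128109770 in replicate 2. Median fold enrichment was 3.89 and 3.83 in the window, against 3.72 and 3.68 over the lists. In replicate 1, 76 of 125 peaks of the window had a -log10 q of at least 5, against 70334 of 145533 in the list. In replicate 2 these were 84 of 145 and 68794 of 135472. The strongest peak of the window ranked in the top 2.19% of the list by p-value in replicate 1 and in the top 3.04% in replicate 2.

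In the authors' tables of stitched regions, neighbouring peaks away from transcription start sites are joined and ranked. These regions start and stop at edges of the same peaks, so their like outline is not a second source for the block. With GFP the tables listed 2 regions and 1 region in the window, each a single peak, and none was marked as a super-enhancer. In the table of SMARCB1 replicate 1, 4 of 5 regions carried the mark, and in that of replicate 2, 3 of 4 did. The marks follow a rank by read signal, and regions with the same ID, made of the number of joined peaks, share 1 signal in these tables. A mark is therefore not a measurement of that region's own signal. Over the whole tables the marked share was 3.37% and 3.35% with GFP and 5.55% and 5.02% with SMARCB1. The island between the genes was the unmarked region of both SMARCB1 tables. The marked regions that reach into ETS1 ended at 128389729 and 128389685, just short of the strong peak common to all libraries. That peak and the others up to the end of the block are absent from both tables, whose header names the peaks as distal to transcription start sites. With the same number of regions taken by rank from each table, 649, both SMARCB1 libraries had 2 marks in the window and GFP had 0. That rank rests on the same shared signals.

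Adjacent windows of the same length over the genome give the scale of these values. Of 2464 adjacent windows of 850 kb with a peak in any library, 666 (27%) had at least 2 times the mean covered length with SMARCB1 and no overlap of the groups, as this window had. A difference in covered length as large as that of the ETS1 and FLI1 window was found in 9 of them. The ETS1 and FLI1 window was placed around the block, whereas these windows have fixed borders, which split the block at 128350000. The fixed window that ends there differed by 108 kb, a difference that 21 others reached. The one after it, which holds FLI1, differed by 24.9 kb, which 421 others reached. The median window had 11.7 kb in peaks with GFP and 20.7 kb with SMARCB1.

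**Figure D3:**
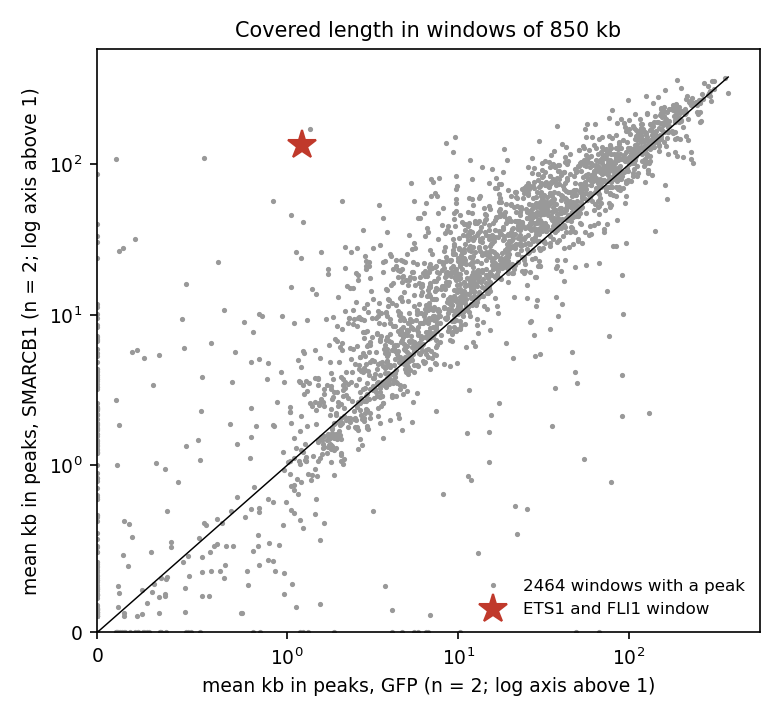
Mean covered length with SMARCB1 against that with GFP, in kb (n = 2 each), for 2464 windows of 850 kb with a peak, on axes that are logarithmic above 1 kb, with the line of equal values. The star marks the ETS1 and FLI1 window, at 1.23 kb with GFP and 134 kb with SMARCB1.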

How the data were processed

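H3K27ac peak lists of 4 libraries were used. Each was made by the authors from a single library, with MACS2 on hg19 and then a filter, per the tags and peak names in the deposited lists. The rule of the filter, and the version and control of MACS2, are not given in the sources used here. BWA 0.7.12-r1039 is named in the submitters' processing notes. The fold enrichment (a ratio over the caller's background) and the -log10 p and q of a peak are the authors' deposited values. Peak numbers ran without a break from the first to the last peak of the window in all 4 lists. This check does not reach FLI1 or the other stretches outside those peaks, so it cannot show whether the filter removed peaks there. The number, size, rank score and super-enhancer mark of stitched regions come from the authors' tables, made with ROSE per the file headers. Tables were paired with libraries through the names they carry, and 100% of its region edges were in that library's peak list, against at most 0.952% in any other. A further 8 columns of read signal were not used, as regions with the same ID share 1 signal.

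Peaks overlapping by 1 bp were merged. Fragments and background were solved from the fold and p-value of each peak within 0.001. These steps were checked on simulated data. Depth is known only through this background, so no counting intervals are given. Named regions were those common to all libraries, the 5 gained ones with the highest lower fold, those at the edges of the block, and the widest peak of each library. The 2 regions shared with GFP replicate 1 alone, and the extent of the block up to its last peak inside ETS1, were chosen after their values were seen, beside the rule by bins. ETS1 and FLI1 borders are rounded and from the definition of the window. No hg19 annotation or sequence was used here, so transcription start sites, other ETS genes and peak sequences are not given. RefSeq names served for gene order alone. The window and these measures were chosen with earlier results of these data known. Scripts ran in Python 3.11.15 with scipy 1.17.1, pandas 2.3.3 and numpy 2.4.6, and figures were drawn with matplotlib 3.10.9. The comparison with the fixed windows that hold the locus was added after seeing the data.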

Additional observations from a re-analysis of the deposited data

How the results depend on the processing

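The covered-length difference of 133 kb was 114 kb with peaks of a -log10 q of at least 5, 116 kb with equal numbers of strongest peaks, and 123 to 143 kb when 1 library was left out. With the replicate number as a block it stayed 133 kb by construction, with paired differences of 142 and 124 kb. Gained regions numbered 45 at the stricter threshold, 47 with equal numbers, 13 with peaks within 1 kb joined, and 77 to 141 without 1 library, where the highest values, 141 and 120, came without SMARCB1 replicates 1 and 2, as 1 peak then sufficed. Lost regions numbered 0 except under a reciprocal overlap of 50%, which gave 1, because wide SMARCB1 peaks fail that demand. The largest run of higher bins moved to 128280001 to 128400000 when no other bin was allowed inside, and ended at 128130000 with bins of 5 kb. The excess of super-enhancer marks was 3.5 regions, and 2.0 with equal numbers by rank. FLI1 had 0 kb in peaks under the stricter, equal-number and depth-scaled lists. Depth limits what can be said of stretches with no peak.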

Other observations

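The 40 regions with a peak in a single SMARCB1 library were narrow and weak. The 27 of replicate 1 had a median width of 244 bp and a median fold enrichment of 3.30, and the 13 of replicate 2 had 297 bp and 3.20. Gained regions had a median width of 872 bp and median fold enrichments of 4.39 and 3.89 in replicates 1 and 2. None of the single-library regions was over 3 kb wide, against 11 of the 77 gained ones. Fold enrichment takes part in whether a peak is called, so the weaker values of single-library regions follow in part from how they are defined.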
